A study of Mus musculus with 12 samples.

Results

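The early response of Balb/c bone marrow-derived macrophages to interleukin-4 (IL-4) was measured on 4 of the 12 arrays of the series. The members are the 2 arrays of cells given IL-4 for 4 h and the 2 arrays of mock cells of the same strain. Marrow of Balb/cAnNCrl mice aged 8 to 12 weeks was pooled from 2 males and 1 female and grown in 200 ng/ml recombinant human CSF1, the growth factor that drives macrophage differentiation, which both groups received. The cells were replated on day 6, and on day 7 they got 10 ng/ml of mouse recombinant IL-4 for 4 h or, in the mock group, no IL-4 for 18 h. The labels therefore give the groups different lengths of incubation as well as different treatments, and these cannot be told apart. The remaining arrays are Balb/c cells after 18 h of IL-4 and the same 3 groups of C57BL6/J cells, with 2 arrays a group. The series text describes 2 independent experiments on different littermates, so each value below rests on n = 2 pooled cultures a group.

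IL-4 is a type 2 cytokine. On macrophages it binds the IL-4 receptor alpha chain, which pairs with the common gamma chain or the IL-13 receptor alpha chain, and the receptor's JAK kinases then phosphorylate STAT6. STAT6 enters the nucleus, binds spaced palindromic sites and switches on genes of the alternative activation state, among them Arg1 and Retnla, together with SOCS proteins that damp cytokine signalling. The same cytokine is known to restrain inflammatory genes that NF-kB drives.

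Values are levels on a log2 scale: the scanner software's background-subtracted signal of a probe, minus the 75th percentile of its array, so that 0 is the level of a fairly bright probe and a difference of 1 is a doubling. A gene was tested with its brightest probe where that gene was well above background, by the scanner's own flag, on both arrays of either group. A gene was called where the adjusted p of limma, with Benjamini-Hochberg adjustment over all 15918 genes tested, was below 0.05. The 4 arrays had 56.0% and 67.7% of spots well above background in the 4 h group and 60.2% and 58.9% in the mock group, and the median signal of the second 4 h array was 125.6 units, against 79.2 units on the first and 86.0 and 86.3 units on the mock arrays. Over the probes that passed the background filter, replicate arrays correlated at r = 0.973 for 4 h and r = 0.978 for mock. Arrays of different groups correlated at 0.960 to 0.980. All 14 macrophage identity genes tested, such as the CSF1 receptor, were well above background on all 4 arrays and none was called.

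After 4 h of IL-4, 308 of the 15918 genes were called (1.93%), 190 of them higher (1.19%) and 118 lower (0.741%). The rises were larger than the falls: 91 genes rose at least 4-fold and 43 at least 8-fold, while 17 fell at least 4-fold and 8 at least 8-fold. The median log2 change was 1.89 among the genes called higher, -1.29 among those called lower and -0.01 over all genes tested. In every called gene the 4 h values lay wholly above or wholly below the mock values, which was also true of 31.9% of all genes tested. In 254 of the 308 the signal was well above background on all 4 arrays, in 36 it was near background on the mock pair and in 7 on the 4 h pair. Depending on which 1 array was left out, 111 genes (without 4 h replicate 1), 258 (without 4 h replicate 2), 96 (without mock replicate 1) or 129 (without mock replicate 2) were called, and 60 of the 308 calls held in all 4 of these fits. The other 8 arrays lend the fit its estimate of spread: on the 4 arrays alone no gene passed (0 called by limma, smallest adjusted p 0.0860, 1170 genes at an unadjusted p below 0.05), and with normexp background correction 4 did. In bulk RNA, a change in the share of cells that express a gene and a change of its RNA per cell cannot be told apart.

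The slides are a known batch, as each slide carries 4 arrays. The first slide held both mock arrays and 4 h replicate 1, and 4 h replicate 2 was on another slide. Within the first slide the median change of the genes called higher was 1.98 and of those called lower -1.30. The second 4 h array against the mock arrays gave 1.83 and -1.21. Both 4 h arrays took part in choosing the called genes, so the same sign was fixed in advance. These medians do not measure the part of the slide. With the slide as a term in the fit, limma called 370 genes, and 237 of the 308 were among them.

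**Figure D1:**
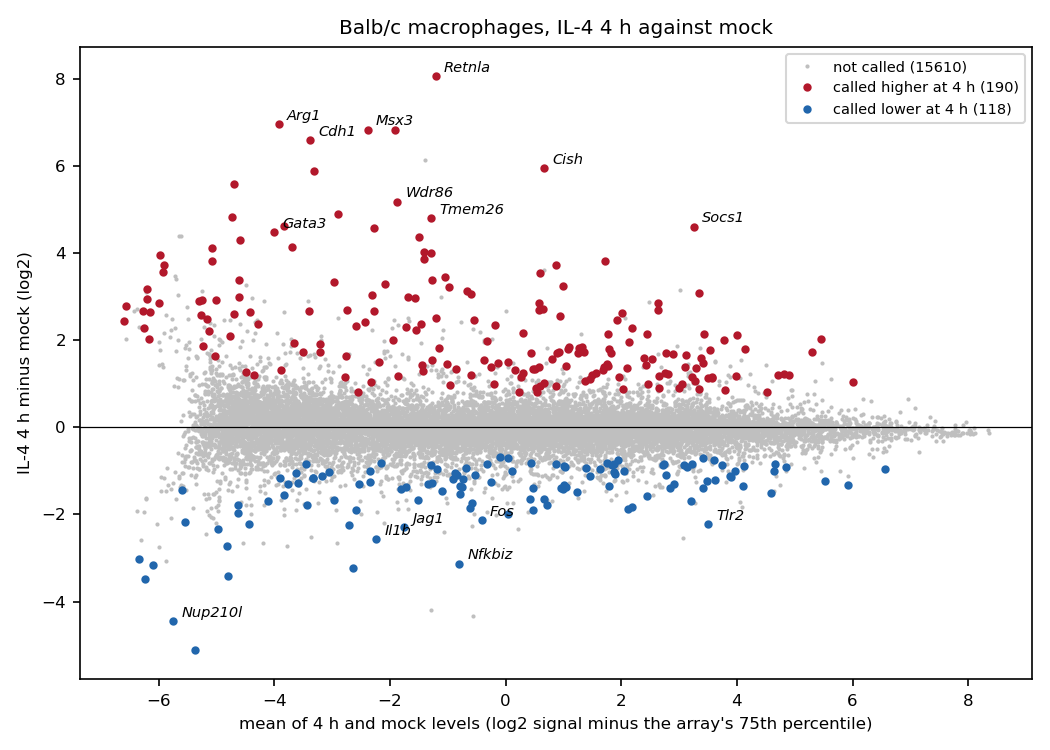
Mean level of each of the 15918 genes over the 4 h and mock arrays (log2 signal relative to the 75th percentile of the array, horizontal) against the log2 change, 4 h minus mock (vertical). The 190 genes called higher reach a change of 8.07 at Retnla, and the 118 called lower include Nfkbiz at -3.13.

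Feedback inhibitors of cytokine signalling were among the early rises. SOCS proteins bind activated cytokine receptors or JAKs and end their signal. Of 8 SOCS family genes tested, 4 were called higher (1.19% of all genes tested were) and none lower, with a family median of 0.91 (0.81 to 1.05 with 1 array left out), against -0.01 over all genes. Socs1 read 5.76 and 5.35 on the 4 h arrays, against 1.00 and 0.90 on the mock arrays. The 2 groups stood far apart and the arrays within each differed little. The log2 change was 4.61 ± 0.19 (SE, adjusted p = 0.000101), about 24.4-fold. Cish, a SOCS protein induced through STAT5 and STAT6, was above background on all 4 arrays. Cish read 4.11 and 3.18 on the 4 h arrays, against -0.75 and -3.87 on the mock arrays. Both 4 h arrays were high, while the mock arrays differed widely from each other, and the change was 5.95 ± 0.84 (adjusted p = 0.0126), or 4.39 without mock replicate 2 and 7.51 without mock replicate 1. Socs2, which limits growth hormone signalling, read 0.99 and 0.07 at 4 h, against -2.97 and -3.72 in mock, and rose by 3.87 ± 0.34 (adjusted p = 0.00236). Socs5 rose by 1.33 ± 0.21 (adjusted p = 0.0183). Socs7, with a change of 0.50 ± 0.25 (adjusted p = 0.558), was not called. The calls of Socs1 and Socs2 held with any 1 array left out. The calls of Cish and Socs5 did not hold without certain arrays (adjusted p of 0.0871 for Cish without 4 h replicate 1, 0.0735 for Socs5 without 4 h replicate 2, 0.116 for Socs5 without mock replicate 1 and 0.0662 for Socs5 without mock replicate 2).

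Of 18 genes of the IL-4 receptor and JAK-STAT6 pathway, only Jak2, a receptor-bound kinase, was called (1.93% of all genes tested were). The list's median was -0.07 (-0.18 to 0.07 with 1 array left out). Jak2 read 2.77 and 2.17 on the 4 h arrays, against 1.28 and 0.83 on the mock arrays. Both 4 h arrays were above both mock arrays, as in every called gene, and the change was 1.41 ± 0.24 (adjusted p = 0.0249). Il4ra, the ligand-binding chain, had 1.25 ± 0.32 (adjusted p = 0.115), at 4.14 and 3.40 on the 4 h arrays, against 2.85 and 2.20 on the mock arrays, and did not pass. Stat6, the transcription factor, had -0.26 ± 0.17 (adjusted p = 0.707). Il13ra1, which replaces the gamma chain in the second receptor type, had -0.93 ± 0.32 (adjusted p = 0.262). The phosphatase genes Ptpn2, whose product dephosphorylates JAKs, and Inpp5d, which encodes the lipid phosphatase SHIP, had changes of 0.76 and -0.45, and the adaptor gene Dok2 had 1.11, none of them called. Jak2 lost the call without 4 h replicate 1 (adjusted p = 0.13), mock replicate 1 (adjusted p = 0.063) or mock replicate 2 (adjusted p = 0.127).

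Effector genes of alternative activation form a list of known IL-4 targets. For comparison, 1.19% of all genes tested were called higher and 0.741% lower. Of 20 tested, 8 were called higher and none lower (5 higher without 4 h replicate 1), 19 had a change above 0 and the median was 1.97 (1.75 to 2.41 with 1 array left out). Retnla, which encodes the secreted protein RELM-alpha (Fizz1), was called higher. Retnla read 3.60 and 2.05 on the 4 h arrays, against -3.01 and -7.48 on the mock arrays. The gene was well above background on 1 of the 2 mock arrays, which lay far apart, and both were far below the 4 h arrays. Its change was 8.07 ± 1.19 (adjusted p = 0.0147), or 5.83 without mock replicate 2 and 10.31 without mock replicate 1.

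Arg1, the arginase that turns arginine into ornithine and urea, was near background on both mock arrays. Arg1 read -1.10 and 0.22 on the 4 h arrays, against -7.06 and -7.74 on the mock arrays. The fitted change was 6.96 ± 0.45 (adjusted p = 0.000626). For a gene near background on every array of one group only a bound can be given: the mean of the brighter group over the lowest signal that still counted as well above background, or the dim probe's own value where that was higher. Such a bound holds for the processing used here only. By this measure Arg1 was at least 36-fold higher with IL-4. Over the alternatives run its lowest log2 change was 2.42, below that bound. Cdh1, which encodes E-cadherin, an adhesion protein of epithelia that IL-4 is known to induce in macrophages, showed the same pattern. Cdh1 read -0.83 and 0.66 on the 4 h arrays, against -6.87 and -6.48 on the mock arrays. It was at least 46.2-fold higher (adjusted p = 0.00159), with a lowest log2 change of 2.56 over the alternatives, below the bound. 

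Pdcd1lg2 encodes PD-L2, a ligand that inhibits T cells through PD-1. Pdcd1lg2 read 0.43 and -1.15 on the 4 h arrays, against -4.58 and -7.92 on the mock arrays. It was measured on 1 of the 2 mock arrays, and it rose by 5.89 ± 0.98 (adjusted p = 0.0243). Rnase2a, a ribonuclease of the eosinophil-associated family, rose by 4.38 ± 0.42 (adjusted p = 0.00321). Flt1, a receptor for vascular endothelial growth factor, read 2.40 and 3.07 at 4 h, against -1.19 and -0.80 in mock, and rose by 3.73 ± 0.25 (adjusted p = 0.00081). Il4i1, a secreted amino acid oxidase, rose by 3.55 ± 0.52 (adjusted p = 0.0147). Clec10a, a galactose-binding lectin receptor also known as Mgl1, was already bright in mock cells and rose by 2.03 ± 0.26 (adjusted p = 0.00916). Several well known IL-4 markers were not called, which with 2 arrays a group does not show that they were unchanged. The mannose receptor gene Mrc1 read 5.34 and 5.40 at 4 h, against 4.28 and 4.75 in mock (change 0.86 ± 0.18, adjusted p = 0.0603). Chil3, which encodes the chitinase-like protein Ym1, had 1.69 ± 0.58 (adjusted p = 0.271), and the lectin gene Mgl2 had 3.60 ± 0.86 (adjusted p = 0.0881). With the slide as a term, limma called Chil3 (change 2.24, adjusted p = 0.0446). It did not call Mrc1 (adjusted p = 0.117) or Mgl2 (adjusted p = 0.137). That fit called 11 of the 20 effector genes higher, and 215 of all 15918 genes.

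The calls of Arg1, Cdh1, Rnase2a and Flt1 held with any 1 array left out. Single arrays mattered to the calls of Retnla, Pdcd1lg2, Il4i1 and Clec10a, with an adjusted p of 0.105 for Retnla, 0.145 for Pdcd1lg2 and 0.0832 for Il4i1 without 4 h replicate 1, 0.054 for Il4i1 without mock replicate 1 and 0.0533 for Pdcd1lg2, 0.084 for Il4i1 and 0.0538 for Clec10a without mock replicate 2.

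**Figure D2:**
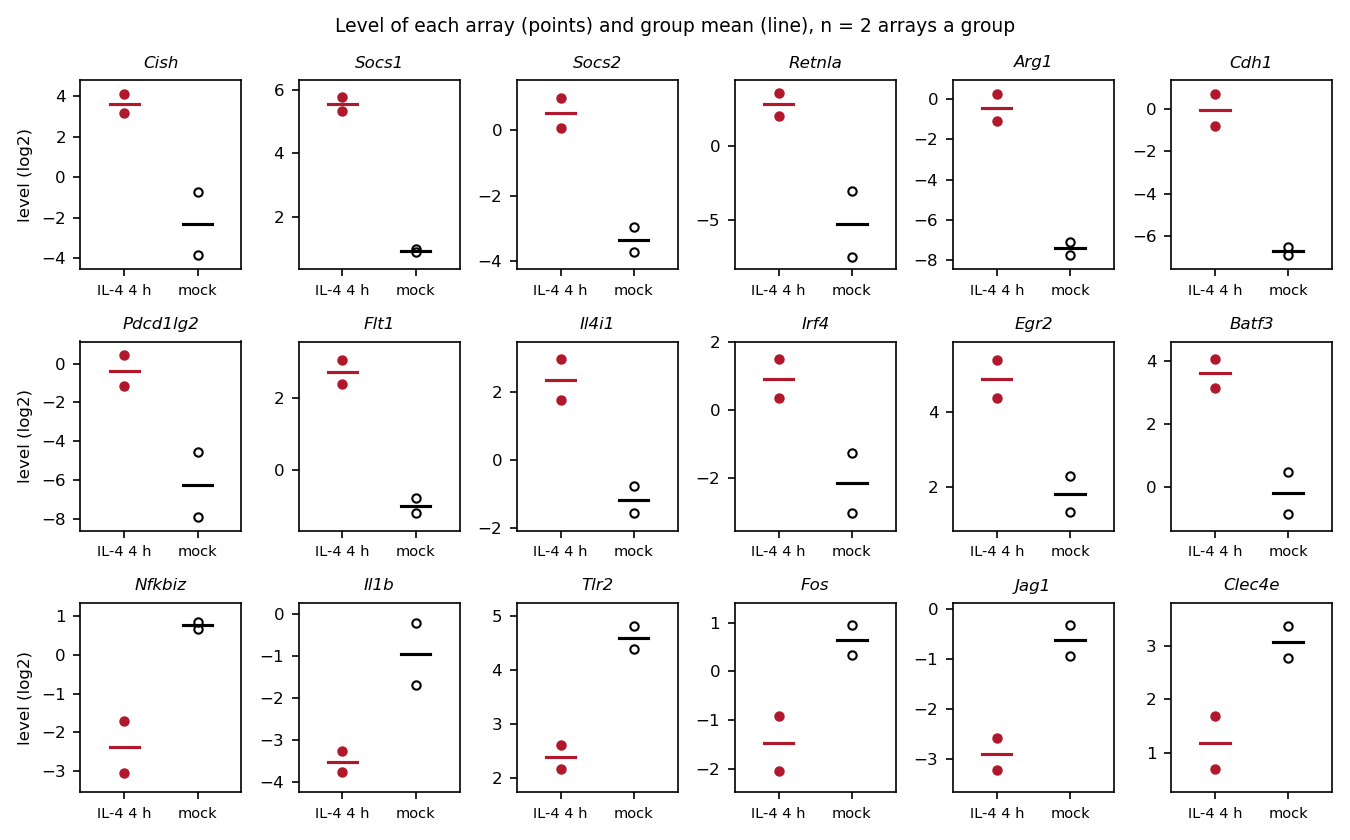
Level of 18 genes (log2 signal relative to the 75th percentile of the array) on each of the 2 IL-4 4 h arrays (filled points) and 2 mock arrays (open points), with lines at the group means and a separate scale for each gene. No 4 h point reaches the mock points in any of the 18 genes, and the mock arrays lie farthest apart for Retnla, Pdcd1lg2 and Cish.

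Transcription factors known from IL-4 priming made up a further group of rises, where 1.19% of all genes tested were called higher. Of 19 tested, 6 were called higher and none lower, with a median of 0.67 (0.23 to 1.09 with 1 array left out), and 3 were called higher without 4 h replicate 1 or mock replicate 2. Batf3, a partner of AP-1 and IRF factors, read 4.09 and 3.15 at 4 h, against 0.47 and -0.87 in mock, and rose by 3.81 ± 0.45 (adjusted p = 0.0068). Egr2, a zinc finger factor, rose by 3.08 ± 0.47 (adjusted p = 0.0177). Irf4 read 1.49 and 0.36 on the 4 h arrays, against -1.26 and -3.02 on the mock arrays. Irf4 is an interferon regulatory factor required for much of alternative activation, and its change was 3.06 ± 0.55 (adjusted p = 0.0311). Nfil3, a basic leucine zipper repressor, was tightly measured and read 4.16 and 3.81 at 4 h, against 1.41 and 1.19 in mock (change 2.69 ± 0.17, adjusted p = 0.000626). Klf4, a STAT6 target, rose by 2.15 ± 0.31 (adjusted p = 0.0142), and Ppargc1b, a coactivator of oxidative metabolism, by 1.71 ± 0.28 (adjusted p = 0.022). Pparg, the nuclear receptor it cooperates with, had 0.29 ± 0.27 (adjusted p = 0.823) and was not called. The calls of Batf3 and Nfil3 held with any 1 array left out. The calls of Egr2, Irf4, Klf4 and Ppargc1b did not hold without certain arrays (adjusted p of 0.11 for Egr2, 0.17 for Irf4 and 0.0697 for Ppargc1b without 4 h replicate 1, 0.0539 for Klf4 without 4 h replicate 2, 0.0819 for Klf4 and 0.102 for Ppargc1b without mock replicate 1 and 0.0912 for Egr2, 0.0847 for Irf4 and 0.107 for Ppargc1b without mock replicate 2).

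Transcription factors outside that list also came up from background. Msx3 is a homeobox gene best known from the developing neural tube. Msx3 read 0.60 and 1.46 on the 4 h arrays, against -5.73 and -5.88 on the mock arrays. It was at least 99.9-fold higher (adjusted p = 0.00155), and a second probe changed by 5.47. Gata3, the master factor of T helper 2 cells, read -1.42 and -2.09 at 4 h, against -6.90 and -5.58 in mock, and was at least 14.2-fold higher (adjusted p = 0.00281). Both genes were near background on both mock arrays. Over the alternatives run, the lowest log2 changes were 3.37 for Msx3 and 1.32 for Gata3, below these bounds. The calls of Msx3 and Gata3 held with any 1 array left out.

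Of 16 genes of arginine and polyamine metabolism, 2 were called, Arg1 and Slc7a2, both higher (1.19% of all genes tested were called higher). Slc7a2 encodes CAT2, a transporter that carries arginine into the cell. Slc7a2 read -1.15 and -1.45 on the 4 h arrays, against -4.39 and -4.86 on the mock arrays. The groups were well separated, and the change was 3.33 ± 0.34 (adjusted p = 0.00404). Its lowest value over the alternatives was 1.46. The list's median was 0.09 (-0.01 to 0.08 with 1 array left out). Smox, which oxidises spermine, had -0.54 ± 0.16 (adjusted p = 0.153), and Srm, spermidine synthase, had 1.39 ± 0.90 (adjusted p = 0.701). The call of Slc7a2 held with any 1 array left out.

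STAT6 binds a palindrome of TTC, any 4 bases and GAA, which reads the same on both strands. RefSeq promoters (GRCm38.p6, 250 bases before to 50 after the transcription start) were available for 145 of the 190 genes called higher, 74 of the 118 called lower and 10345 of all genes tested. At least 1 promoter held the motif in 18 genes called higher (12.4%), 3 genes called lower (4.05%) and 695 of all genes tested (6.72%). Counted by promoter and not by gene, 6.95% of all 32851 promoters of the table held it. Among the named genes called higher that have a promoter in the table, 6 of 34 held the motif. The 4 with the largest rises are shown because each pairs a letter match near its start with a strong rise at 4 h, with the matched bases in capitals, on the strand of the gene. They are Retnla, chr16:48842359-48842658, + strand, with the match at position -145 from the start site, Pdcd1lg2, chr19:29410669-29410968, + strand, at -82, Edn1, chr13:42301226-42301525, + strand, at -185, and Tmem26, chr10:68723496-68723795, + strand, with 2 matches at -227 and -41.
Retnla: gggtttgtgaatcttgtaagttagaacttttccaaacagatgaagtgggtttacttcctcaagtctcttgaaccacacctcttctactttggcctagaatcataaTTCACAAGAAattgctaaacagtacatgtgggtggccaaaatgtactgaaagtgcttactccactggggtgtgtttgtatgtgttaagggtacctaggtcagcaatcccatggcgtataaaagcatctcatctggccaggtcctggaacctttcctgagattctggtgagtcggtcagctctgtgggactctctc
Pdcd1lg2: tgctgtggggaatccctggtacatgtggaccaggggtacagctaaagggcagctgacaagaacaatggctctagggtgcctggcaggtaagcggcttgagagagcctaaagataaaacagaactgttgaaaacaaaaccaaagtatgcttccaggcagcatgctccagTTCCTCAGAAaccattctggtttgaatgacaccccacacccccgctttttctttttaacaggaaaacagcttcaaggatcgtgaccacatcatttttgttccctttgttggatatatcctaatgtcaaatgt
Edn1: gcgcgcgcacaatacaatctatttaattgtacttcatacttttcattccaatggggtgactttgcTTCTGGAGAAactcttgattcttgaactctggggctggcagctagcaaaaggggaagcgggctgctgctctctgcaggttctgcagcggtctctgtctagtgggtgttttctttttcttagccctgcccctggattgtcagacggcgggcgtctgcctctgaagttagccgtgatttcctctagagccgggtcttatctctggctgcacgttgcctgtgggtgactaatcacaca
Tmem26: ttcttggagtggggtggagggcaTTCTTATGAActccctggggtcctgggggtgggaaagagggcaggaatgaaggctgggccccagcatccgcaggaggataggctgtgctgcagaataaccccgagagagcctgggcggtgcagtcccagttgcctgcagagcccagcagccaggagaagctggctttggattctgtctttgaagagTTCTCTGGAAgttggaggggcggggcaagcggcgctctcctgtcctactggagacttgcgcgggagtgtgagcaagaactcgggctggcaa
Such a match is a run of letters and was not tested for binding.

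Many of the largest rises belonged to genes outside the usual lists. Tmem26, whose promoter is printed above, encodes a membrane protein. Tmem26 read 1.43 and 0.79 on the 4 h arrays, against -3.54 and -3.86 on the mock arrays. It rose by 4.81 ± 0.28 (adjusted p = 0.000626), with arrays of a group less than 1 log2 unit apart. Wdr86, a WD repeat protein gene, rose by 5.18 ± 0.66 (adjusted p = 0.00916), although its 4 h arrays read 1.86 and -0.42. Cldn11, a tight junction claudin, rose by 4.89 ± 0.44 (adjusted p = 0.00239). Its mock values of -5.45 and -5.22 were just above the lowest signals counted as well above background, -5.57 and -5.65. Together with Cdh1, Cldn11 was 1 of 2 genes called among 13 junction genes (1.93% of all genes tested were called). Pxdc1, a PX domain protein gene, rose by 4.01 ± 0.30 (adjusted p = 0.00146). St8sia1, the sialyltransferase that makes ganglioside GD3, rose by 3.29 ± 0.28 (adjusted p = 0.0021), and a second probe by 1.06. Over the alternatives run, the lowest log2 changes were 2.98 for Tmem26, 2.95 for Wdr86, 2.09 for Cldn11, 2.52 for Pxdc1 and 1.56 for St8sia1. The calls of Tmem26, Cldn11, Pxdc1 and St8sia1 held with any 1 array left out. Wdr86 lost the call without mock replicate 2 (adjusted p = 0.0542).

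Rasgrp1, a Ras activator best known in T cells, read 1.94 and 1.08 at 4 h, against -3.93 and -6.72 in mock, where 1 of 2 arrays measured it. It rose by 6.83 ± 0.75 (adjusted p = 0.005), while a second probe changed by 2.04. The dopamine receptor gene Drd4 was at least 17-fold higher and F2r, which encodes the thrombin receptor PAR1, at least 15.4-fold, with both near background on both mock arrays (adjusted p = 0.00471 for Drd4 and 0.0273 for F2r). Tarm1, a myeloid receptor that activates through an Fc receptor chain, was at least 13.2-fold higher (adjusted p = 0.000626). Lowest log2 changes over the alternatives were 1.68 for Drd4, 1.49 for F2r and 1.49 for Tarm1, below these bounds. Aqp3, a water and glycerol channel, rose by 4.58 ± 0.66 (adjusted p = 0.0142) and was measured on 1 of 2 mock arrays. The calls of Rasgrp1, Drd4 and Tarm1 held with any 1 array left out. Single arrays mattered to the calls of F2r and Aqp3, with an adjusted p of 0.135 for F2r and 0.0964 for Aqp3 without 4 h replicate 1, 0.111 for F2r without mock replicate 1 and 0.143 for F2r and 0.0736 for Aqp3 without mock replicate 2.

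Among 22 growth factors and receptors, 3 were called higher, Flt1, Hbegf and Edn1, and none lower (1.19% of all genes tested were called higher). The list's median was -0.05, or -0.18 to 0.25 with 1 array left out. Hbegf read 0.05 and 1.14 on the 4 h arrays, against -3.42 and -3.42 on the mock arrays. Hbegf encodes a ligand of the EGF receptor that is shed from the membrane, and its change was 4.02 ± 0.37 (adjusted p = 0.00255). Edn1, the precursor of the vasoconstrictor endothelin-1, was near background on both mock arrays. Edn1 read -3.68 and -0.95 on the 4 h arrays, against -7.45 and -6.84 on the mock arrays. The 4 h arrays differed widely, and the gene was at least 9.83-fold higher (adjusted p = 0.0173). Its lowest log2 change over the alternatives was 1.43, below that bound. The call of Hbegf held with any 1 array left out. Edn1 lost the call without mock replicate 1 (adjusted p = 0.114) or mock replicate 2 (adjusted p = 0.0672).

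The falls included genes of inflammation and innate sensing. Nfkbiz encodes IkB-zeta, a nuclear co-regulator that NF-kB needs to induce genes such as Il6. Nfkbiz read -3.05 and -1.69 on the 4 h arrays, against 0.67 and 0.84 on the mock arrays. Both 4 h arrays were far below both mock arrays, and the change was -3.13 ± 0.38 (adjusted p = 0.00806). Among 17 NF-kB subunits and inhibitors, 2 were called lower (0.741% of all genes tested were) and none higher, with a median of -0.21 (-0.35 to -0.03 with 1 array left out). The second was Nfkbie (IkB-epsilon), which fell to 1.23 and 1.46 at 4 h, against 2.09 and 2.23 in mock (change -0.82 ± 0.15, adjusted p = 0.0357). Nfkbia, the classical IkB-alpha, had -0.53 ± 0.20 (adjusted p = 0.342), and Tnip1, an inhibitor of the pathway, -0.70 ± 0.31 (adjusted p = 0.451). Nfkbiz and Nfkbie lost the call with some arrays left out, at an adjusted p of 0.186 for Nfkbie without 4 h replicate 1, 0.0559 for Nfkbie without 4 h replicate 2, 0.117 for Nfkbie without mock replicate 1 and 0.0501 for Nfkbiz and 0.168 for Nfkbie without mock replicate 2. Nfkbie was not called with the slide as a term (adjusted p = 0.0507).

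Il1b, the precursor of interleukin-1 beta, was the only 1 of 13 inflammatory mediators called (1.93% of all genes tested were). The list's median was -0.48 (-0.57 to -0.40 with 1 array left out). Il1b read -3.27 and -3.78 on the 4 h arrays, against -0.21 and -1.69 on the mock arrays. All 4 h values lay below the mock values, and the change was -2.57 ± 0.50 (adjusted p = 0.0426). Over the alternatives run it lay between -3.31 and -0.79. Tnf had -1.93 ± 0.85 (adjusted p = 0.453) and its groups overlapped. Ptges, the prostaglandin E synthase, had -0.93 ± 0.20 (adjusted p = 0.0652), and the anti-inflammatory cytokine Il10 had 1.19 ± 0.50 (adjusted p = 0.412). Il6 had 2.39 ± 0.95 (adjusted p = 0.372), from a mock level near background on 1 of 2 arrays. Il1b lost the call without 4 h replicate 1 (adjusted p = 0.134), 4 h replicate 2 (adjusted p = 0.152) or mock replicate 1 (adjusted p = 0.166). Il1b was not called with the slide as a term (adjusted p = 0.0768).

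Of 22 Toll-like receptors and adaptors, 2 were called lower (0.741% of all genes tested were) and none higher. The list's median was -0.33 (-0.43 to -0.05 with 1 array left out). Tlr2, the receptor for bacterial lipopeptides, read 2.60 and 2.16 at 4 h, against 4.82 and 4.39 in mock, and fell by 2.22 on the log2 scale (adjusted p = 0.00927). Irak3, an inhibitory kinase of the same pathway, changed by -1.01 ± 0.19 (adjusted p = 0.0402). The kinase gene Irak2 had -1.17 ± 0.27, the LPS co-receptor gene Cd14 -1.11 ± 0.49 and Cd180, a TLR4-like receptor, -1.56 ± 0.53, and none of the 3 passed (adjusted p of 0.0775, 0.457 and 0.261). The calls of Tlr2 and Irak3 did not hold without certain arrays (adjusted p of 0.0692 for Irak3 without 4 h replicate 1, 0.141 for Irak3 without 4 h replicate 2, 0.0637 for Tlr2 and 0.205 for Irak3 without mock replicate 1 and 0.0583 for Irak3 without mock replicate 2). Irak3 was not called with the slide as a term (adjusted p = 0.0779).

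Of 30 interferon response genes, 26 had a change below 0, with a median of -0.34 (-0.41 to -0.20 with 1 array left out), but limma called none of them. With the slide as a term, 7 were called lower and none higher, where that fit called 155 of all 15918 genes lower and 215 higher. In the main fit 0.741% of all genes tested were called lower. Rsad2 (viperin) had -1.72 ± 0.48, and the interferon-induced antiviral genes Ifit3, Ifit1 and Ifit2 had -1.33 ± 0.28, -1.31 ± 0.30 and -0.94 ± 0.22. Their adjusted p lay between 0.0635 for Ifit3 and 0.149 for Rsad2. The 21 chemokines had a median of -0.43 (-0.59 to -0.37 with 1 array left out) and no call, or 1 called higher and 2 lower with the slide as a term. They went both ways: Cxcl10, an interferon-inducible T cell attractant, had -2.53 ± 0.57 (adjusted p = 0.0734), while Ccl8 had 2.24 ± 0.48 (adjusted p = 0.0649) and Ccl17, a ligand of CCR4, 1.90 ± 0.46 (adjusted p = 0.0938). The 18 chemoattractant receptors had a median of -0.81, or -0.39 without 4 h replicate 1 and -0.41 without mock replicate 1. Of these only Ccrl2, a chemerin-binding receptor that does not signal, was called, while 4 were called lower without 4 h replicate 2 and 5 with the slide as a term. Ccrl2 read -0.62 and -0.16 on the 4 h arrays, against 1.26 and 1.23 on the mock arrays. The arrays within each group were close, and the change was -1.64 ± 0.21 (adjusted p = 0.00961). The formyl peptide receptor genes Fpr1 and Fpr2 had -2.52 ± 0.55 and -1.88 ± 0.45, Ccr2 -1.55 ± 0.38 and Cx3cr1 -2.41 ± 0.85, with no call among the 4. Ccrl2 lost the call without 4 h replicate 1 (adjusted p = 0.057), mock replicate 1 (adjusted p = 0.0637) or mock replicate 2 (adjusted p = 0.0533).

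Of 19 immediate-early genes, 2 were called higher and 2 lower (1.19% and 0.741% of all genes tested were). Their median was -0.13 (-0.24 to -0.03 with 1 array left out). Fos, the AP-1 subunit, read -2.04 and -0.92 at 4 h, against 0.34 and 0.95 in mock (change -2.13 ± 0.35, adjusted p = 0.0243). The orphan nuclear receptor gene Nr4a1 changed by -1.53 ± 0.29 (adjusted p = 0.0402). In the other direction, Ier3, a stress response gene, rose by 3.25 ± 0.31 (adjusted p = 0.0031) and Fosl2, another AP-1 subunit, by 1.56 ± 0.28 (adjusted p = 0.0304). The MAP kinase phosphatase genes Dusp1 (-1.70 ± 0.44) and Dusp4 (1.86 ± 0.50) were not called. The call of Ier3 held with any 1 array left out. Single arrays mattered to the calls of Fos, Nr4a1 and Fosl2, with an adjusted p of 0.0764 for Fos and 0.19 for Nr4a1 without 4 h replicate 1, 0.0918 for Nr4a1 and 0.0561 for Fosl2 without 4 h replicate 2, 0.0643 for Fos, 0.121 for Nr4a1 and 0.092 for Fosl2 without mock replicate 1 and 0.127 for Fos and 0.159 for Fosl2 without mock replicate 2. Nr4a1 and Fosl2 were not called with the slide as a term (adjusted p of 0.0718 and 0.068).

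Further falls came from single genes of varied function. Jag1, a Notch ligand, was the 1 gene called among 10 Notch ligands, receptors and targets (1.93% of all genes tested were). Jag1 read -3.22 and -2.58 on the 4 h arrays, against -0.92 and -0.32 on the mock arrays. It changed by -2.28 ± 0.36 (adjusted p = 0.0196). Clec4e encodes Mincle, a lectin receptor for mycobacterial glycolipid, and fell by 1.88 on the log2 scale (adjusted p = 0.0323). Rab7b, a small GTPase of late endosomes, was tightly measured, at 1.27 and 1.26 at 4 h, against 3.01 and 3.20 in mock (adjusted p = 0.0068). Mterf2, a mitochondrial transcription termination factor, changed by -2.25 ± 0.32 (adjusted p = 0.0125), and Mex3b, an RNA-binding protein, by -1.86 ± 0.31 (adjusted p = 0.0243). Spsb4, an adaptor of ubiquitin ligases, changed by -1.89, Rnf150 by -1.91 and Pakap, an anchor of protein kinase A, by -1.99. Over the alternatives run, the changes closest to no change were -0.49 for Mterf2, -0.57 for Spsb4, -1.14 for Jag1 and -1.23 for Mex3b. The call of Rab7b held with any 1 array left out. The calls of Jag1, Clec4e, Mterf2, Mex3b, Spsb4, Rnf150 and Pakap did not hold without certain arrays (adjusted p of 0.127 for Jag1, 0.135 for Clec4e, 0.0873 for Spsb4, 0.0719 for Rnf150 and 0.188 for Pakap without 4 h replicate 1, 0.0786 for Mex3b, 0.15 for Rnf150 and 0.128 for Pakap without 4 h replicate 2, 0.0605 for Jag1, 0.0776 for Clec4e, 0.0828 for Mterf2, 0.148 for Mex3b, 0.205 for Rnf150 and 0.218 for Pakap without mock replicate 1 and 0.107 for Jag1, 0.168 for Clec4e, 0.0591 for Mterf2, 0.0688 for Mex3b, 0.0685 for Spsb4 and 0.146 for Pakap without mock replicate 2). Rnf150 and Pakap were not called with the slide as a term (adjusted p of 0.0661 and 0.0744).

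Named genes that fell to near background on both 4 h arrays numbered 4. Nup210l, a homologue of a nuclear pore glycoprotein, was at least 4.63-fold lower (adjusted p = 0.0201). Lrrc17, a leucine-rich repeat protein, was at least 2.38-fold lower, Jhy at least 2.35-fold and Spry3, an inhibitor of growth factor signalling, at least 2.31-fold. These 4 are faint in mock cells too, at levels between -4.86 and -2.93, and their direction turned under normexp background correction, to 0.10 for Nup210l, 0.36 for Lrrc17, 0.22 for Jhy and 0.40 for Spry3. With no background filter another probe stood for Nup210l and gave 0.55. Nup210l, Lrrc17, Jhy and Spry3 lost the call with some arrays left out, at an adjusted p of 0.0635 for Nup210l without 4 h replicate 1, 0.0832 for Nup210l without 4 h replicate 2, 0.126 for Nup210l, 0.0744 for Lrrc17, 0.0647 for Jhy and 0.0637 for Spry3 without mock replicate 1 and 0.0533 for Nup210l, 0.0555 for Lrrc17 and 0.0687 for Jhy without mock replicate 2. Nup210l was not called with the slide as a term (adjusted p = 0.0521).

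Single members were also called in lists of surface and metabolic genes (1.93% of all genes tested were called). Among 13 costimulatory and coinhibitory ligands Cd40, which relays T cell help, rose by 1.73 ± 0.28 (adjusted p = 0.0209) beside Pdcd1lg2, while Icosl had -1.15 ± 0.27 (adjusted p = 0.0828). Fcgr2b, the inhibitory Fc gamma receptor, read 6.55 and 5.77 at 4 h, against 4.81 and 4.06 in mock, and was the 1 call among 16 Fc receptor and phagocytosis genes (change 1.72 ± 0.30, adjusted p = 0.0274). The efferocytosis receptor gene Mertk had -1.07 ± 0.30 (adjusted p = 0.143). The integrin beta 3 gene Itgb3 rose by 1.73 ± 0.16 (adjusted p = 0.00281) and joined Cdh1 as 1 of 2 calls among 14 fusion genes. The 2 iron genes called went opposite ways. Tfrc, the transferrin receptor for iron uptake, rose by 1.32 ± 0.22 (adjusted p = 0.0256). Hmox1, which releases iron from haem, fell to 2.68 and 2.69 at 4 h, against 3.61 and 3.59 in mock (adjusted p = 0.0168). The iron exporter gene Slc40a1 had -2.33 ± 0.61 (adjusted p = 0.12). Abca1, the cholesterol efflux pump, changed by -1.39 ± 0.23 (adjusted p = 0.0228), and Olr1, a scavenger receptor for oxidised LDL, was at least 1.17-fold higher (adjusted p = 0.0385) from near background. The call of Itgb3 held with any 1 array left out. Single arrays mattered to the calls of Cd40, Fcgr2b, Tfrc, Hmox1, Abca1 and Olr1, with an adjusted p of 0.127 for Cd40, 0.135 for Fcgr2b, 0.15 for Tfrc, 0.0935 for Hmox1 and 0.174 for Olr1 without 4 h replicate 1, 0.0613 for Cd40, 0.0539 for Tfrc, 0.0559 for Hmox1 and 0.0701 for Abca1 without 4 h replicate 2, 0.0515 for Cd40, 0.0708 for Tfrc, 0.0916 for Hmox1, 0.136 for Abca1 and 0.166 for Olr1 without mock replicate 1 and 0.124 for Fcgr2b, 0.134 for Tfrc, 0.0718 for Hmox1, 0.0644 for Abca1 and 0.159 for Olr1 without mock replicate 2. Cd40 and Abca1 were not called with the slide as a term (adjusted p of 0.0618 and 0.0602).

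None of 17 cholesterol synthesis, 19 glycolysis, 19 unfolded protein response, 17 matrix remodelling, 11 MHC class II or 20 ribosomal protein genes was called by limma, although leaving out single arrays gave 1 call lower in the glycolysis list (without mock replicate 2) and 1 in the matrix list (without 4 h replicate 2). The median of the MHC class II genes was 0.34, or -0.35 without 4 h replicate 1, -0.47 without mock replicate 2, 1.03 without 4 h replicate 2, 1.08 without mock replicate 1 and 0.85 with the slide as a term, and that of the matrix genes was -0.32 (-0.48 to -0.15 with 1 array left out). Of 17 fatty acid oxidation genes only the coactivator gene Ppargc1b was called (1.93% of all genes tested were). Cpt1a, which carries fatty acids into mitochondria, had -0.64 ± 0.21 (adjusted p = 0.244). Ppargc1b lost the call without 4 h replicate 1 (adjusted p = 0.0697), mock replicate 1 (adjusted p = 0.102) or mock replicate 2 (adjusted p = 0.107).

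**Figure D3:**
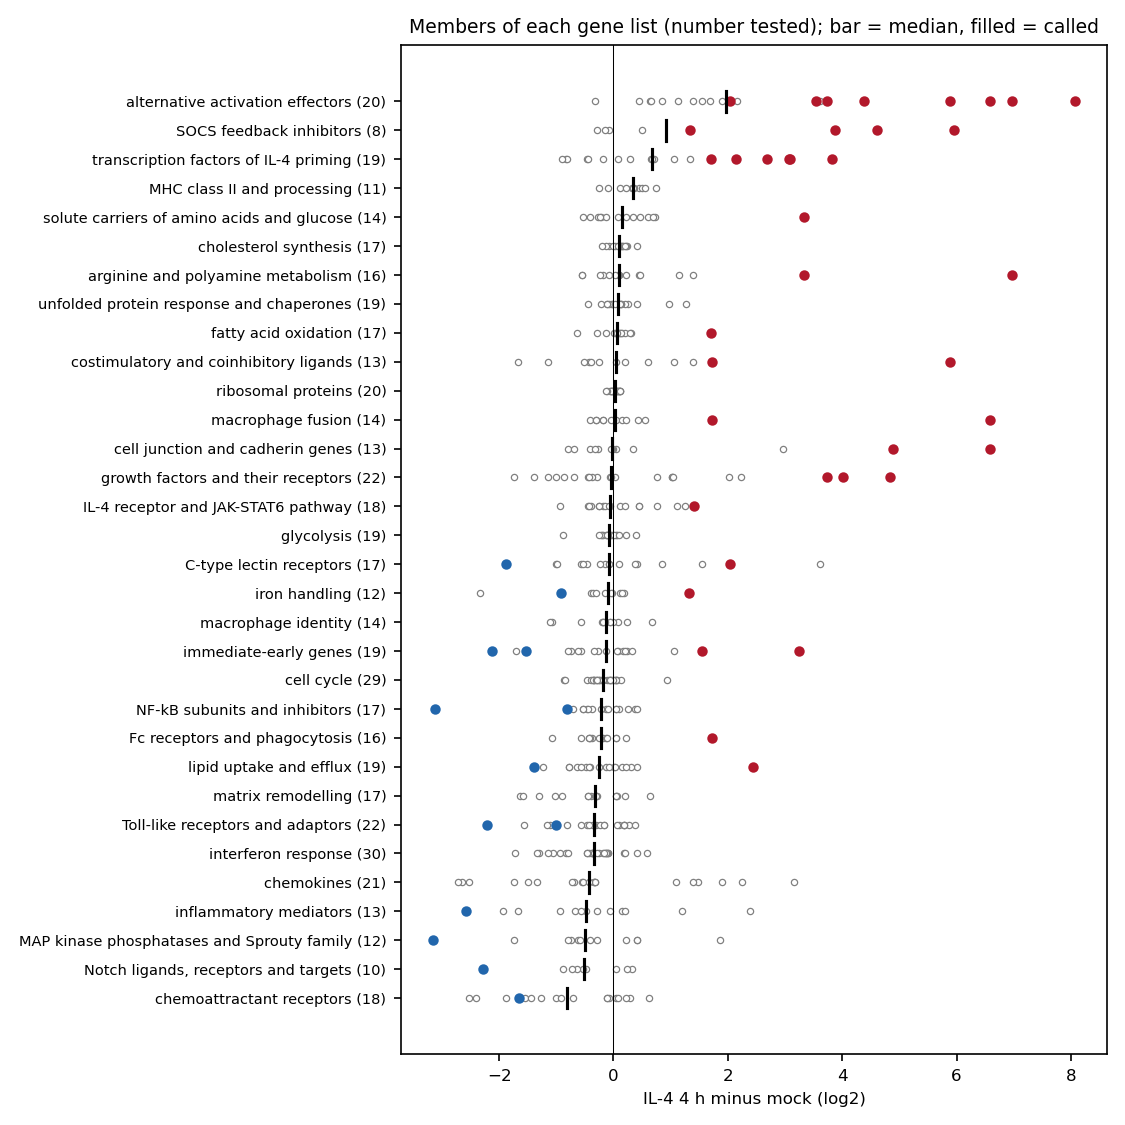
Log2 change, 4 h minus mock, of the members of 32 gene lists (rows, number of genes tested in brackets), with a bar at each median. Filled points are called genes, and the list medians lie between -0.81 and 1.97. Several medians near 0 turn sign with 1 array left out.

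Some growth genes differed widely between replicates. Myc, a driver of cell growth, read 0.84 and 3.89 at 4 h, against -0.38 and 2.43 in mock. The second replicate was far above the first in both groups, and the change of 1.33 ± 1.15 was not called (adjusted p = 0.805). Ccnd1, cyclin D1, read 0.92 and 3.91 at 4 h, against 1.44 and 4.31 in mock, and Mcm6, a subunit of the replicative helicase, 2.94 and 5.35, against 3.23 and 5.85. The chemokine gene Ccl7, a monocyte attractant, also had a far higher second replicate, with 2.95 and 6.25 at 4 h, against -0.79 and 3.67 in mock. Its change of 3.16 was the largest rise of the chemokine list but was not called (adjusted p = 0.502). Over all genes tested, the difference between replicates 1 and 2 in the 4 h group correlated with that in the mock group at r = 0.685, across genes, which are not independent. None of 29 cell cycle genes was called, and 23 of them had a change below 0. Their median of -0.18 turned with single arrays left out, to 0.26 without 4 h replicate 1 and 0.46 without mock replicate 2, against -0.52 without 4 h replicate 2 and -0.72 without mock replicate 1. Cdkn1a, the cell cycle inhibitor p21, had 0.94 ± 0.28 (adjusted p = 0.167).

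Most genes called in Balb/c were also called in C57BL6 cells, which have their own mock arrays. On the same 15918 genes, 705 were called in C57BL6 at 4 h (4.43%), and 257 were called in both strains, which is 83.4% of the Balb/c calls and 36.5% of the C57BL6 calls. Of the 308 Balb/c calls, 303 had the same sign in C57BL6. The share with the same sign over all genes tested was not computed. Both strains' tests use the same spread per gene from 1 fit, so the 2 sets of calls are not independent. The test of the difference between the strains' responses called no gene (0 by limma, smallest adjusted p 0.179, 335 at an unadjusted p below 0.05), so no gene was shown to respond particularly in Balb/c. Of the 6 genes with the lowest unadjusted p of that difference, Plekhh1 changed by -1.02 in Balb/c and 1.59 in C57BL6. Mboat2, a lysophospholipid acyltransferase gene, changed by 2.70 in Balb/c and 5.53 in C57BL6, where 1 of 2 mock arrays measured it, and Hebp2, a haem-binding protein gene, by 0.84 and 3.93. The other 3 were near background on both arrays of a group, so that the size of their strain difference is not given: Slc7a2 on the C57BL6 mock arrays, Ank2 (ankyrin-B) on the C57BL6 4 h arrays and Aldh1a2, which makes retinoic acid, on the Balb/c mock arrays. All but Hebp2 were called in Balb/c. The calls of Mboat2 and Aldh1a2 held with any 1 array left out. Plekhh1 and Ank2 lost the call with some arrays left out, at an adjusted p of 0.198 for Plekhh1 and 0.0782 for Ank2 without 4 h replicate 1, 0.109 for Ank2 without 4 h replicate 2, 0.143 for Plekhh1 and 0.13 for Ank2 without mock replicate 1 and 0.19 for Plekhh1 without mock replicate 2. Plekhh1 and Ank2 were not called with the slide as a term (adjusted p of 0.0545 and 0.0567).

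**Figure D4:**
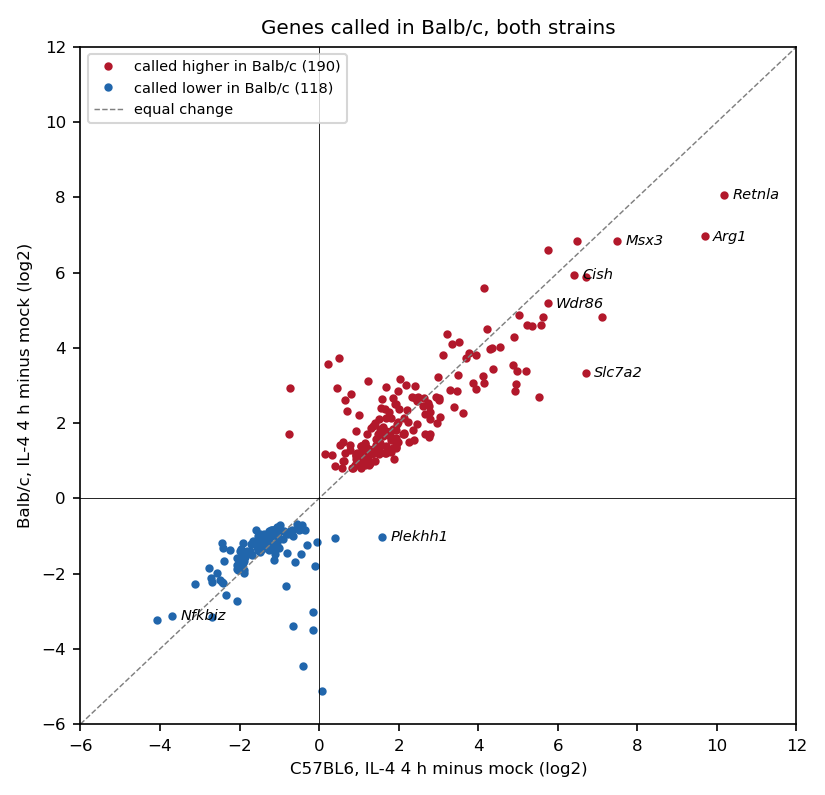
Log2 change, 4 h minus mock, of the 308 genes called in Balb/c cells (vertical), against the change of the same genes in C57BL6 cells (horizontal), with a dashed line of equal change. Of the 308 points, 303 have the same sign in both strains, and the size is inexact for genes near background in a group.

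Balb/c cells were also measured after 18 h of IL-4, which places the 4 h values in time. That group is set against the same mock arrays, so only levels are given. Retnla read -3.01 and -7.48 on the mock arrays, 3.60 and 2.05 at 4 h and 7.42 and 6.91 at 18 h, and Arg1 -7.06 and -7.74 on the mock arrays, -1.10 and 0.22 at 4 h and 4.51 and 4.69 at 18 h. Both were higher at 18 h than at 4 h. Socs1 read 1.00 and 0.90 on the mock arrays, 5.76 and 5.35 at 4 h and 4.45 and 4.76 at 18 h, and Gata3 -6.90 and -5.58 on the mock arrays, -1.42 and -2.09 at 4 h and -5.32 and -5.10 at 18 h, so the 4 h arrays were the highest of the 3 groups for both. Fos stood at 0.34 and 0.95 on the mock arrays, -2.04 and -0.92 at 4 h and 0.14 and 0.31 at 18 h, with the 18 h arrays just below the mock arrays. Tlr2 read 4.82 and 4.39 on the mock arrays, 2.60 and 2.16 at 4 h and 1.66 and 1.21 at 18 h and was lowest at 18 h.

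**Figure D5:**
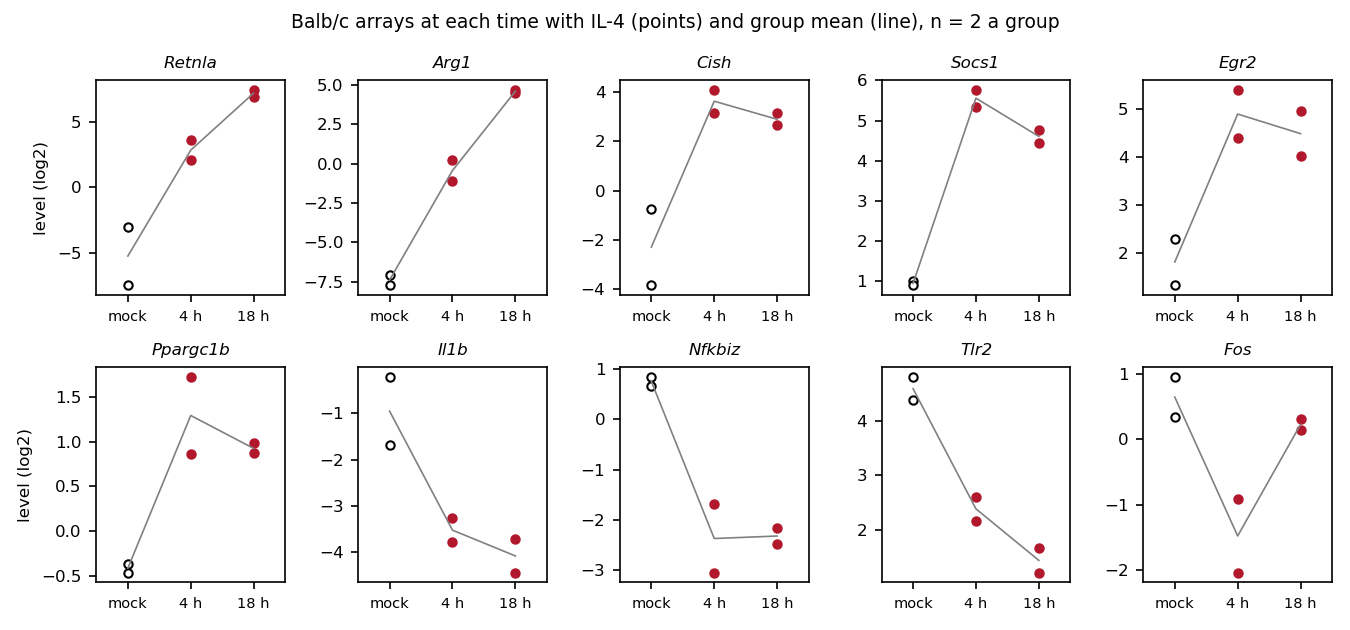
Level of 10 genes (log2 signal relative to the 75th percentile of the array) on the 2 Balb/c arrays of each group, mock, 4 h and 18 h of IL-4, with lines through the group means and a separate scale for each gene. Retnla and Arg1 are highest at 18 h, Cish, Socs1 and Egr2 have their highest mean at 4 h, and Fos has its lowest mean at 4 h.

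Markers of other cell types were checked because the cultures start from whole marrow. No list of T cell, B cell, NK cell, neutrophil, mast cell, eosinophil, stromal, erythroid or megakaryocyte genes held a called gene, although 1 mast cell and basophil gene was called lower with the slide as a term. The summed signal of the 9 dendritic cell markers, on the log2 scale, was 4.96 and 4.34 on the 4 h arrays, against 3.62 and 3.09 on the mock arrays, where 8 of the 9 were well above background on at least 1 array, and 1 of its 7 tested genes was called, Batf3, which also stands in the list of transcription factors. The remaining marker, Clec9a, was not above background on any of the 4 arrays. Batf3 read 4.09 and 3.15 at 4 h, against 0.47 and -0.87 in mock, and made up most of the rise of the sum. Of the 7 tested genes, 6 had a change above 0. The T cell marker Cd3d and the B cell kinase gene Blk were not above background on any array either, each as the only such gene of its list. Also undetected were the basophil and mast cell genes Mcpt8 and Cpa3, the eosinophil gene Epx and the NK cell gene Ncr1. Members above background on at least 1 array numbered 8 of 9 for T cells, 7 of 8 for B cells and 2 of 7 for NK cells. They were 7 of 9 for neutrophils, 5 of 9 for mast cells and basophils and 3 of 7 for eosinophils. Stromal cells had 7 of 8, erythroid cells 5 of 7 and megakaryocytes 6 of 7. The part of other cells in the called changes was not tested.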

How the data were processed

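RNA of bone marrow-derived macrophages was hybridised to 1-colour (Cy3) Agilent whole-genome mouse arrays, 1 per sample, from 1 µg of total RNA per the labels' protocols. The deposited intensity values are processed signals, which the scanner software, per the file headers, subtracted for background and detrended within each array. The submitters' processing notes name it as Agilent Feature Extraction 9.5.1.1. The authors also deposited a table of linear ratios, whose denominator they did not state. Set against the scanner values, these matched a ratio to the mean of the 2 C57BL6 mock arrays (SD of the log2 difference 0.00198 to 0.00448 over 21165 probes), and they served as an alternative. The genome build behind the probes is not given in the sources used here.

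Intensities were set on a log2 scale minus the 75th percentile of non-control spots of each array. Spots that the deposited scanner flags (other values, 0 or 1) mark as non-uniform or population outliers were left out, and spots of a probe were averaged. Of 41174 probes, 23916 were well above background on both arrays of either group. Of these, 15835 were named through their accession in RefSeq, 3389 by current symbol, 1592 by a unique older symbol and 3100 kept the file's name. For each gene the probe with the highest mean over 12 arrays was used, which left 15918 genes, and of 116 called genes with further probes, 3 had one of opposite sign. limma 3.58.1 in R 4.3.3 fitted group means to all 12 arrays in 6 groups (6 residual degrees of freedom), with eBayes and Benjamini-Hochberg adjustment, without a fold limit. The p-values rest on 1 spread per gene, pooled over the 2 cultures of each of the 6 groups and moderated across genes. They do not rest on the compared groups alone. The procedure was tested on simulated data, and 18 alternatives were run.

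Genes were named by rule: the largest rises and falls with a full gene symbol among called genes above background on all 4 arrays, the highest bounds for genes near background on one side, up to 6 members of each list, and fixed IL-4 genes. Exceptions are stated. The members, gene lists and rules were chosen with earlier results of these data known. List counts and medians are descriptions. No per-sample depth applies to arrays: the number of arrays limits the precision. Saturated spots numbered 0 to 2 on an array.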

Additional observations from a re-analysis of the deposited data

How the results depend on the processing

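Counts of called genes moved with several choices, while the direction of the 308 called changes mostly did not. Against 308 genes (190 higher, 118 lower), median scaling gave 205 (126 and 79), no background filter 120 (97 and 23), array weights 93 (77 and 16), normexp 4 (4 and 0), only the 6 Balb/c arrays 2 (2 and 0) and only the 4 arrays compared 0. Leaving out 1 array gave 96 to 258 genes, with 84 to 170 higher and 12 to 88 lower. Quantile normalization, the deposited ratios, the mean of all probes, kept outlier spots, the slide as a term and both other background filters gave 254 to 370. All 308 calls kept their direction under the other scalings, sample sets, blocks, weights and kept outlier spots and with any 1 array left out, 307 with no filter, the filter on any group or the mean of probes, 306 of 307 with the deposited ratios and 294 with normexp. The filter on all 4 arrays tested 256 of them, and all 256 kept it. Much of this was fixed in advance. As the 2 groups of every called gene did not overlap, leaving out 1 array could not turn a sign. The smaller sample sets, the weights and the replicate block left the log2 changes themselves as they were. Kept directions in those fits are therefore no check on the calls. The cause of the shifts in the counts was not tested. 

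The labels do not say that a replicate number marks a shared experiment. With replicate number within strain as a block, limma called 1786 genes (808 higher, 978 lower), the 308 among them, and 2 for the strain difference. That fit called 7 interferon response genes, 7 chemoattractant receptors and 6 inflammatory mediators lower, and 3 chemokines higher and 6 lower. The replicate differences correlated at 0.685 between 4 h and mock, 0.457 between 18 h and mock and 0.691 between 18 h and 4 h.

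The strain difference had 4 calls with quantile normalization, 4 with the deposited ratios and 0 to 4 with 1 array left out. Nup210l turned to 0.10 with normexp and to 0.55 with no filter or a filter on any group, where another probe was picked. Lrrc17 (0.36), Jhy (0.22) and Spry3 (0.40) turned with normexp. Sizes moved as well. The lowest log2 changes over the alternatives were 2.04 for Rasgrp1, 2.25 for Aqp3, 2.36 for Socs2, 2.39 for Hbegf and 2.53 for Rnase2a. Among genes not called, leaving out 1 array moved Myc between -0.19 and 2.86, Ccnd1 between -1.95 and 1.04 and Mcm6 between -1.70 and 0.91. With 2 arrays a group, the number of arrays limits the precision.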

Other observations

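Further called genes are given singly, all chosen after their values were seen. Aldh1a2, which makes retinoic acid from retinal, read -3.24 and -3.57 at 4 h, against -6.00 and -6.01 in mock, where it was near background on both arrays, and was at least 4.62-fold higher (adjusted p = 0.00329). Over the alternatives the lowest log2 change of Aldh1a2 was 0.89, below that bound. Dhrs9, a retinol dehydrogenase, rose by 1.71 ± 0.24 (adjusted p = 0.0125) and Rara, a retinoic acid receptor, by 1.93 ± 0.38 (adjusted p = 0.0455). The call of Aldh1a2 held with any 1 array left out. Single arrays mattered to the calls of Dhrs9 and Rara, with an adjusted p of 0.0791 for Dhrs9 and 0.159 for Rara without 4 h replicate 1, 0.0601 for Dhrs9 and 0.0747 for Rara without mock replicate 1 and 0.0701 for Dhrs9 and 0.205 for Rara without mock replicate 2. Rara was not called with the slide as a term (adjusted p = 0.0621).

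Pecam1, an adhesion molecule of endothelium and leukocytes, had mock signals near background in both cultures and was at least 6.5-fold higher (adjusted p = 0.0113). Its lowest log2 change over the alternatives was 1.13, below that bound. The IL-1 receptor gene Il1r1 rose by 2.68 ± 0.52 (adjusted p = 0.0423). Serpina3f and Serpina3g, neighbours in a cluster of near-identical serine protease inhibitor genes that probes may not separate, rose by 3.04 ± 0.47 and 2.86 ± 0.36, and at 18 h both stood below their mock levels, at -4.90 and -4.83 for Serpina3f and 0.49 and 0.56 for Serpina3g. The calls of Pecam1, Il1r1, Serpina3f and Serpina3g did not hold without certain arrays (adjusted p of 0.0692 for Pecam1, 0.21 for Il1r1 and 0.0979 for Serpina3f without 4 h replicate 1, 0.0657 for Il1r1 without 4 h replicate 2, 0.0852 for Serpina3f and 0.054 for Serpina3g without mock replicate 1 and 0.167 for Il1r1, 0.0912 for Serpina3f and 0.0538 for Serpina3g without mock replicate 2).

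Nod2, a sensor of bacterial peptidoglycan, read -0.38 and -0.05 at 4 h, against 1.20 and 1.13 in mock (change -1.38 ± 0.17, adjusted p = 0.00834). Peli1, a ubiquitin ligase of Toll-like receptor signalling, read 1.57 and 1.53 at 4 h, against 2.61 and 2.49 in mock (adjusted p = 0.0193), and Il17ra, the IL-17 receptor chain, changed by -1.47 ± 0.25 (adjusted p = 0.0249). Nod2, Peli1 and Il17ra lost the call with some arrays left out, at an adjusted p of 0.0974 for Peli1 and 0.121 for Il17ra without 4 h replicate 1, 0.0701 for Peli1 and 0.0889 for Il17ra without 4 h replicate 2, 0.0578 for Nod2, 0.116 for Peli1 and 0.133 for Il17ra without mock replicate 1 and 0.0688 for Peli1 without mock replicate 2.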
